A study of Mus musculus with 6 samples.

Results

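The genes described here build the peroxisome or encode proteins that work in it. They comprise 45 of the 56691 genes in the count files and were taken by gene symbol from a list of 13 peroxins and 32 enzymes and transporters. Each symbol matched 1 gene, and all 45 genes were among the 15662 genes with enough counts to be tested. Kidney total RNA of 3 control and 3 cisplatin mice was sequenced, each mouse giving 1 library. The animals were C57BL/6 males, 9 weeks old at the first injection. Control mice received the saline vehicle, while cisplatin mice received 4 intraperitoneal injections of 8 mg/kg cisplatin, a platinum drug that damages the kidney tubule, and kidneys were collected at week 7. The comparison asks how repeated cisplatin injury, the study's model of chronic kidney disease, changed the transcripts of this organelle.

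Peroxisomes are small organelles that shorten very long and branched fatty acids, make the first intermediates of ether lipids and oxidize D-amino acids and hydroxy acids, releasing hydrogen peroxide that catalase and peroxiredoxin 5 remove. Peroxins place proteins in the peroxisomal membrane or carry folded enzymes through it, so that enzymes made in the cytosol reach the lumen. In the kidney, peroxisomes are abundant in the proximal tubule, which takes most of its energy from fatty acids. Many peroxisomal enzyme genes in rodents are induced by the nuclear receptor PPARα, which binds DNA with RXR at 2 copies of the hexamer AGGTCA set 1 base apart.

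Most peroxisome transcripts were lower in the cisplatin kidney, the enzymes by more than the peroxins. In all, 34 of the 45 genes fell, 3 rose (Hacl1, Abcd2 and Hao2) and 8 were not called, by edgeR's quasi-likelihood F test at an adjusted p below 0.05 over all genes tested. Of all genes tested, 22.8% fell and 24.5% rose by the same rule, 47.4% together. The median log2 fold change was -0.65 over the 45 genes and 0.05 over all genes tested. Among the 13654 genes whose mean log2 CPM (CPM, counts scaled to an equal library size) lay in the range of these genes, 24.9% fell, with a median of 0.02. This range took in most genes tested and does not match the set for level. The median of the mean log2 CPM was 5.99 over the 45 genes and 3.35 over all genes tested. A fall of 2-fold or more was called for 10 of the 45 genes and for 5.64% of all genes tested, and a rise of 2-fold or more for 2 (Hacl1 and Abcd2) and for 9.78%. The cisplatin libraries all lay below the control libraries for 35 of the 45 genes, against 27.6% of all genes tested, and all above them for the 3 genes that rose, against 30.2%.

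These counts depended on the scaling of the libraries. When counts were scaled by library totals alone rather than with TMM factors, the median of all genes tested moved to 0.48, with 8.78% of genes lower and 54.3% higher. The median of the 45 genes was then -0.23, with 19 lower and 5 higher. Upper-quartile factors gave a median of 0.14 over all genes, with 18.5% lower and 30.5% higher, and -0.56 over the 45 genes. The 19 genes lower by library totals were lower in each alternative tried, and 18 of them are enzymes or transporters. They are Acox2, Acox3, Agps, Amacr, Cat, Crot, Ddo, Ech1, Ehhadh, Far1, Gnpat, Nudt19, Pecr, Phyh, Pipox, Prdx5, Scp2, Slc27a2 and the peroxin Pex6.

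Counted read pairs numbered 21891855 to 26627554 per library. Pairs outside annotated genes made up 4.63% to 4.86% of the control and 6.09% to 9.32% of the cisplatin libraries, and chi-square values per gene were larger between cisplatin libraries (13.2 to 40.5) than between control libraries (4.96 to 7.19). Of 14 proximal tubule markers, 12 fell and 2 were not called (Slc13a1 and Aqp1), and their summed level was 31635 to 31982 CPM in control and 4557 to 4835 CPM in cisplatin libraries (14.8% of control). Kap, an abundant androgen-regulated transcript of these cells, held most of the control sum, and without it the markers stood at 10024 to 11244 and at 4355 to 4570 CPM (41.9% of control). Of 6 macrophage and leukocyte markers, 5 rose, and their summed level was 143 to 165 CPM in control and 245 to 344 CPM in cisplatin libraries. The summed level of 3 adrenal gland markers was 0.243 to 0.567 CPM over the libraries. In whole tissue, fewer cells of a type and less RNA per cell cannot be told apart.

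**Figure D1:**
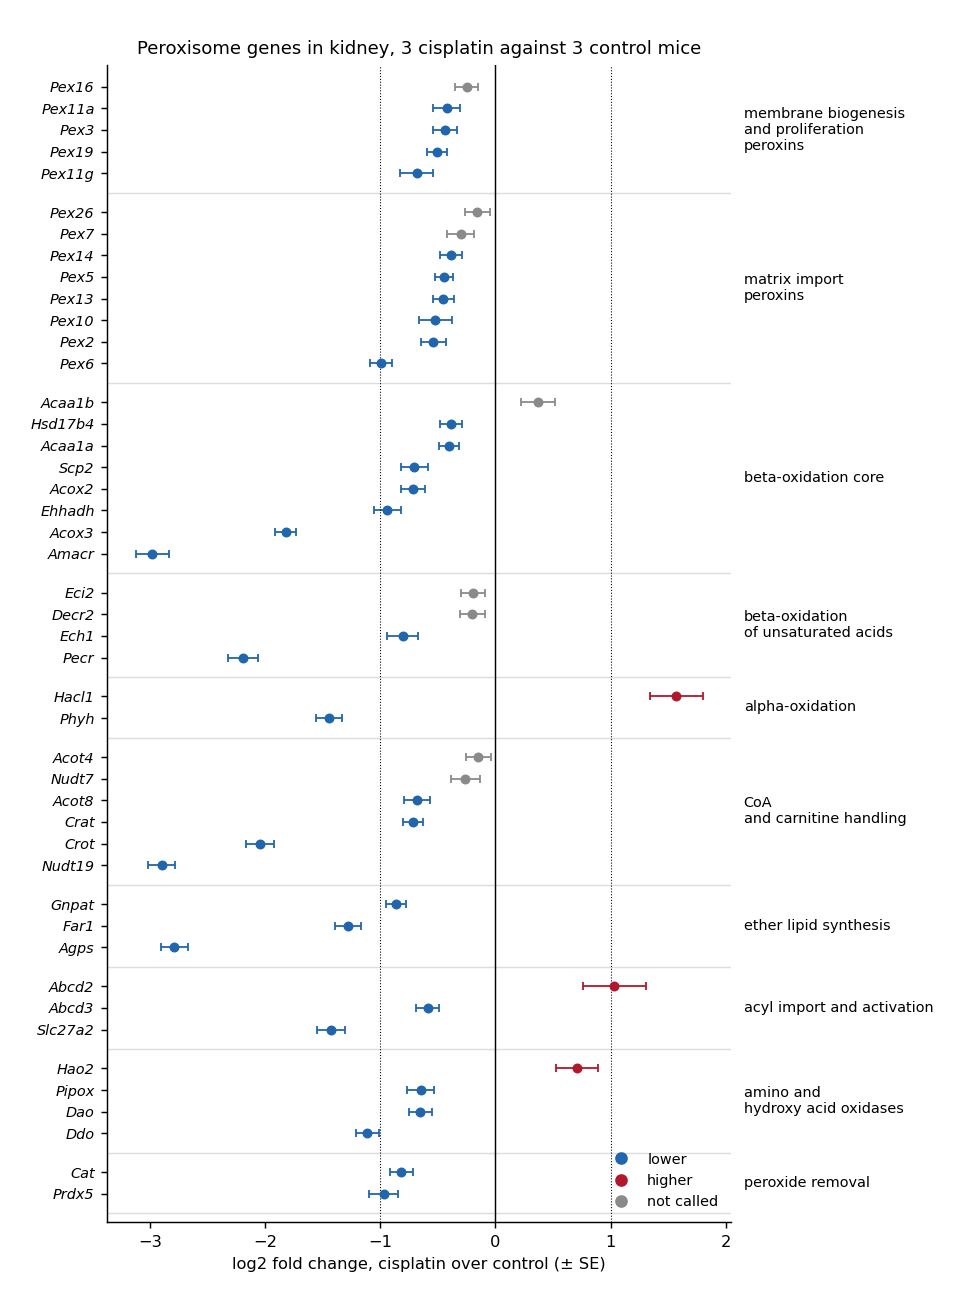
Log2 fold change of each of the 45 genes (points, cisplatin over control) with its standard error (bars), grouped by role, with dotted lines at a 2-fold change in either direction. The peroxins lay between -0.99 and -0.16, while the enzymes and transporters ran from -2.98 (Amacr) to 1.57 (Hacl1).

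Of the 5 peroxins of membrane biogenesis and proliferation, 4 fell and Pex16 was not called. Pex3, Pex16 and Pex19 insert membrane proteins, and the Pex11 proteins elongate the membrane before division. Pex11g showed the largest change of the group, with 10.6, 10.1 and 9.38 CPM in control and 5.20, 6.17 and 7.46 CPM in cisplatin libraries (log2 fold change -0.68 ± 0.14 SE, adjusted p = 0.00252, n = 3 per group, edgeR). The smallest change was that of Pex16, at 16.1, 17.9 and 17.9 CPM in control and 13.6, 15.8 and 14.2 CPM in cisplatin libraries (-0.25 ± 0.10, adjusted p = 0.0614, edgeR), which was not called although its groups did not overlap. Over 17 alternatives its adjusted p ran from 0.042 to 0.204. Pex3, Pex11a and Pex19 fell by 0.42 to 0.51 on the log2 scale. Pex11a lost its call without control replicate 2, its highest library (adjusted p = 0.0591, edgeR), and its adjusted p over 17 alternatives ran from 0.00142 to 0.961.

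Matrix import carries the soluble enzymes. Pex5 and Pex7 are the receptors for the C-terminal and the N-terminal import signal, Pex13 and Pex14 form the docking complex, Pex2 and Pex10 ubiquitinate the receptor, and Pex6, anchored by Pex26, pulls it back to the cytosol. Pex6 fell furthest among all 13 peroxins, with 26.9, 24.5 and 23.3 CPM in control and 12.9, 12.4 and 12.3 CPM in cisplatin libraries (-0.99 ± 0.09, adjusted p = 1.35e-05, edgeR). Its anchor Pex26 changed least, at 16.9, 14.95 and 15.6 CPM in control and 12.6, 15.8 and 14.2 CPM in cisplatin libraries (-0.16 ± 0.11, adjusted p = 0.266, edgeR), and the groups overlapped. Of the receptors, Pex5 fell to 73.6% of control (adjusted p = 0.000945) and Pex7 stood at 81.2% without a call (adjusted p = 0.0517, edgeR). Pex7 was called lower by DESeq2 (adjusted p = 0.0383) and limma-voom (adjusted p = 0.0483), and over 17 alternatives the adjusted p ran from 0.00149 to 0.33. Pex2, Pex10, Pex13 and Pex14 fell to between 68.8% and 76.6% of control. Pex14 lost its call when reads of both strands were counted (adjusted p = 0.0954, edgeR), with a range of 0.00418 to 0.758 over 17 alternatives.

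In total 10 of 13 peroxins fell and none rose by edgeR's test. The 13 log2 fold changes spanned -0.99 to -0.16 with a median of -0.44, and no peroxin reached 2-fold. With library totals Pex6 alone was called lower, 5 of the 13 had values above 0, and the summed peroxin level was then 97.7% of control, against 73.0% with TMM factors. A fall of the peroxins other than Pex6 was thus called with TMM factors and not with library totals.

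Peroxisomal β-oxidation starts with an acyl-CoA oxidase, goes on through a bifunctional enzyme (Ehhadh or Hsd17b4) and ends with a thiolase (Acaa1a, Acaa1b or Scp2). Amacr, the racemase that turns branched acyl-CoA into the form the oxidases accept, showed the largest fall of the 45 genes. It was at 301, 284 and 294 CPM in control and at 31.3, 33.9 and 46.6 CPM in cisplatin libraries (-2.98 ± 0.14, adjusted p = 1.39e-07, edgeR), so that the highest cisplatin library was far below the lowest control library. Acox3, an oxidase of branched acyl-CoA, was at 225, 231 and 217 CPM in control and at 61.4, 68.9 and 60.2 CPM in cisplatin libraries (-1.82 ± 0.09, adjusted p = 1.76e-07, edgeR). Acox2, an oxidase of bile acid intermediates, fell less, to 61.0% of control. The bifunctional enzymes both fell, Ehhadh to 52.1% and Hsd17b4 to 76.5% of control, and Scp2, the thiolase of branched chains, to 61.4%.

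The paralogous straight-chain thiolases Acaa1a and Acaa1b lay on opposite sides of 0. Acaa1a was at 51.3, 58.2 and 49.6 CPM in control and at 39.3, 41.8 and 39.1 CPM in cisplatin libraries (-0.41 ± 0.09, adjusted p = 0.00347, edgeR). Acaa1b was at 92.1, 127 and 83.3 CPM in control and at 117, 129 and 144 CPM in cisplatin libraries (0.37 ± 0.15, adjusted p = 0.0637, edgeR). Its groups overlapped through control replicate 2, and without that library it was called higher (adjusted p = 0.00646, edgeR), with a range of 0.00178 to 0.254 over 17 alternatives. The ratio of Acaa1b to Acaa1a counts, which no scaling changes, was 1.80, 2.18 and 1.68 in control and 2.98, 3.10 and 3.69 in cisplatin libraries, without overlap. The genes lie near each other on chromosome 9 (GRCm39, chr9:119168742-119182956 and chr9:118977091-118986161) and share 21.1% and 22.6% of their transcripts' 100-base windows exactly, and pairs that map within these stretches were not counted for either.

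Enzymes that prepare unsaturated acids for the cycle changed by unequal amounts. Pecr, a trans-2-enoyl-CoA reductase, was at 236, 252 and 227 CPM in control and at 41.5, 55.2 and 60.1 CPM in cisplatin libraries (-2.19 ± 0.13, adjusted p = 6.24e-07, edgeR). In the same group, the isomerase Eci2 was at 67.0, 72.1 and 64.8 CPM in control and at 50.9, 61.4 and 65.8 CPM in cisplatin libraries (-0.20 ± 0.10, adjusted p = 0.148, edgeR), and the groups overlapped. Ech1, a dienoyl-CoA isomerase, fell to 57.2% of control, and the reductase Decr2 stood at 87.0% without a call. Both Eci2 and Decr2 were called lower without cisplatin replicate 3 (adjusted p = 0.0212 and 0.00332, edgeR), the lowest values over 17 alternatives, whose highest were 0.431 and 0.42.

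α-Oxidation removes a single carbon from phytanic acid, first through the hydroxylase Phyh and then the lyase Hacl1. Phyh was at 453, 438 and 403 CPM in control and at 137, 161 and 179 CPM in cisplatin libraries (-1.44 ± 0.12, adjusted p = 4.34e-06, edgeR). Hacl1 rose, from 1.26, 1.51 and 1.73 CPM in control to 3.24, 4.73 and 5.45 CPM in cisplatin libraries (1.57 ± 0.23, adjusted p = 0.000267, edgeR). This value rests on few reads. Of the 100-base windows of the Hacl1 transcript, 47.2% also lie in Gm49387, an annotated gene on the same strand with no counts in any library, and the part of this overlap in the low count was not tested. Reads on the opposite strand made up 69.6% of the counts at Hacl1 in control and 45.8% in cisplatin libraries. The level of Hacl1 is therefore uncertain.

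**Figure D2:**
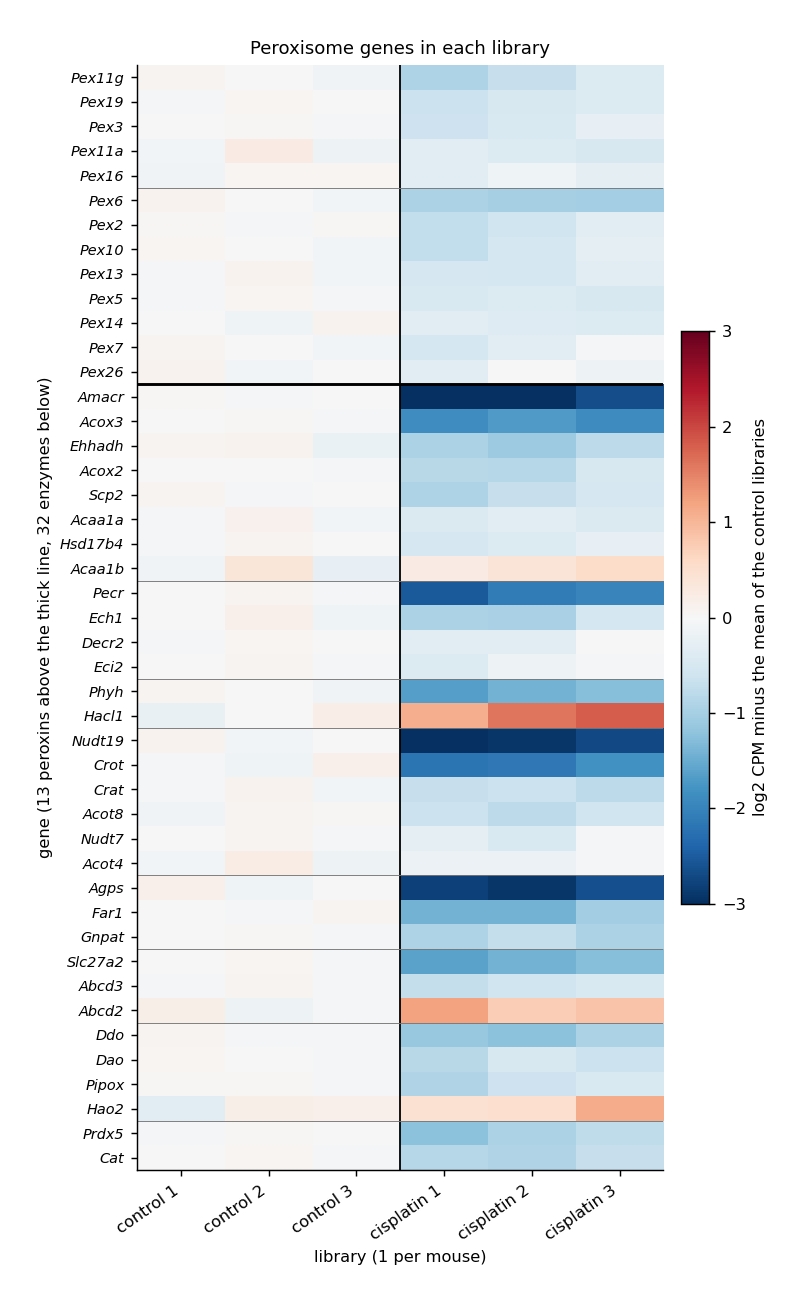
Log2 CPM of each gene (rows) in each of the 6 libraries (columns) minus the mean of its control libraries, in color from -3 (blue) to 3 (red), with peroxins above and enzymes below the thick line. Blue fills the cisplatin columns at most rows and is darkest for Amacr, Nudt19 and Agps, while Hacl1, Abcd2 and Hao2 are red in the 3 cisplatin libraries.

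Enzymes that trim CoA and carnitine esters included the next largest fall. Nudt19, a hydrolase of CoA and its esters that is prominent in kidney, was at 571, 508 and 528 CPM in control and at 63.8, 70.5 and 81.5 CPM in cisplatin libraries (-2.90 ± 0.12, adjusted p = 5.41e-08, edgeR). Crot, which turns shortened acyl-CoA into carnitine esters for export to mitochondria, was at 546, 511 and 614 CPM in control and at 122, 126 and 157 CPM in cisplatin libraries (-2.04 ± 0.13, adjusted p = 6.79e-07, edgeR). Neither gene's groups came near each other. The acetyl-carnitine enzyme Crat and the thioesterase Acot8 fell to 60.8% and 62.3% of control. Nudt7, the other CoA hydrolase, stood at 83.5% without a call (adjusted p = 0.119, edgeR). Acot4, a thioesterase of dicarboxylic acyl-CoA, changed least, at 28.3, 34.8 and 27.03 CPM in control and 26.4, 26.4 and 28.5 CPM in cisplatin libraries (-0.15 ± 0.11, adjusted p = 0.275, edgeR). The summed level of the 6 genes was 24.3% of control, the lowest of the role groups, and Nudt19 and Crot held most of it.

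All 3 genes of ether lipid synthesis fell. Agps, which exchanges the acyl chain for a fatty alcohol and so forms the ether bond, was at 469, 388 and 422 CPM in control and at 61.0, 55.8 and 68.3 CPM in cisplatin libraries (-2.79 ± 0.12, adjusted p = 5.85e-08, edgeR). Far1, the reductase that supplies the alcohol, was at 255, 245 and 271 CPM in control and at 96.7, 96.6 and 125 CPM in cisplatin libraries (-1.28 ± 0.12, adjusted p = 9.91e-06, edgeR). Gnpat, the acyltransferase of the first step, was at 55.2, 56.1 and 54.1 CPM in control and at 28.9, 33.5 and 28.3 CPM in cisplatin libraries (-0.86 ± 0.09, adjusted p = 2.4e-05, edgeR). No library of the cisplatin group reached the lowest control library at any of the 3 genes.

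Fatty acids enter through ABC transporters and are activated by Slc27a2, a very long chain acyl-CoA synthetase. Slc27a2 was the most abundant of the 45 genes, at 2374, 2503 and 2295 CPM in control and at 790, 895 and 982 CPM in cisplatin libraries (-1.43 ± 0.12, adjusted p = 5.58e-06, edgeR). Abcd3, the more abundant of the ABC transporters of the group, was at 321, 348 and 318 CPM in control and at 199, 216 and 241 CPM in cisplatin libraries (-0.59 ± 0.10, adjusted p = 0.000747, edgeR). Its paralog Abcd2 rose from 0.63, 0.49 and 0.53 CPM in control to 1.38, 0.97 and 1.05 CPM in cisplatin libraries (1.03 ± 0.27, adjusted p = 0.00983, edgeR), but it stayed the least abundant of the 45 genes, and DESeq2 did not call it (adjusted p = 0.0822, the highest of 17 alternatives, with 0.00288 the lowest).

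The oxidases of amino and hydroxy acids went both ways. Hao2, a long-chain L-2-hydroxy acid oxidase, rose from 110, 155 and 151 CPM in control to 190, 194 and 297 CPM in cisplatin libraries (0.71 ± 0.18, adjusted p = 0.00854, edgeR), with the highest control library below the lowest cisplatin library. Ddo, which oxidizes D-aspartate, was at 34.1, 31.3 and 31.0 CPM in control and at 14.5, 13.6 and 16.6 CPM in cisplatin libraries (-1.11 ± 0.10, adjusted p = 9.91e-06, edgeR). Pipox, the oxidase of pipecolic acid and sarcosine, changed least, from 194, 196 and 181 CPM in control to 101, 124 and 139 CPM in cisplatin libraries (-0.65 ± 0.12, adjusted p = 0.00105, edgeR), and Dao, the D-amino acid oxidase, fell to 63.6% of control. Because Hao2 rose, the summed level of the 4 oxidases was 90.5% of control with TMM factors and 120% with library totals.

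Both genes of peroxide removal fell. Catalase (Cat) was at 639, 671 and 616 CPM in control and at 353, 344 and 396 CPM in cisplatin libraries (-0.82 ± 0.10, adjusted p = 7.51e-05, edgeR). Prdx5, whose product also resides in mitochondria and the cytosol, was at 1011, 1068 and 1056 CPM in control and at 445, 543 and 614 CPM in cisplatin libraries (-0.97 ± 0.13, adjusted p = 0.000118, edgeR).

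Peroxins and enzymes were then set against each other. The enzymes had 24 of 32 genes lower and 3 higher, and a median of -0.72 on the log2 scale, next to 10 of 13 lower and a median of -0.44 for the peroxins. The shares of genes called lower were close, 75% and 76.9%, while the sizes differed. The 10 genes lower by 2-fold or more were all enzymes or transporters, as were the 3 that rose. The SD of the log2 fold changes was 1.04 over the enzymes and 0.207 over the peroxins. Counting each gene equally, the mean log2 CPM of the enzymes exceeded that of the peroxins by 2.22, 2.27 and 2.25 in control and by 1.85, 1.82 and 1.92 in cisplatin libraries. This distance, which scaling hardly touches, was shorter in the cisplatin group by 0.38 on the log2 scale, while the pooled SD between replicates was 0.0423, and the values of the groups did not overlap. An exact permutation test of 3 against 3 libraries could not give a p below 0.10, and the genes of a class are not replicates, so no p is attached to it.

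In summed CPM, the enzymes stood at 9854, 10022 and 9579 in control and at 3965, 4333 and 4984 in cisplatin libraries, 45.1% of control. The peroxins stood at 398, 404 and 389 in control and at 268, 291 and 310 in cisplatin libraries, 73.0% of control. There were 24.7 ± 0.0932 enzyme counts per peroxin count in control and 15.2 ± 0.707 in cisplatin libraries (mean ± SD, n = 3 per group). Slc27a2 supplied 23.96% to 24.97% of the enzyme sum in control and 19.7% to 20.6% in cisplatin libraries, and without it the enzymes stood at 47.6% of control.

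**Figure D3:**
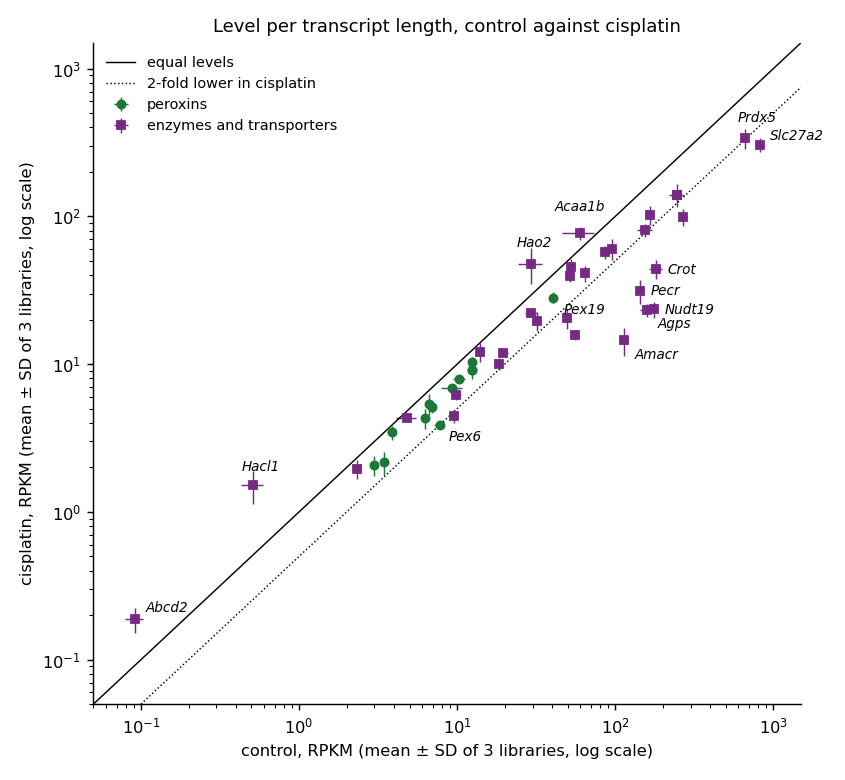
Level of each gene in control (horizontal) and cisplatin kidneys (vertical) in RPKM, as mean ± SD of 3 libraries on log scales, with peroxins as circles and enzymes and transporters as squares. Peroxins keep between the lines of equal and 2-fold lower level, while Amacr, Nudt19, Agps, Pecr and Crot lie well under the 2-fold line and Hacl1, Abcd2, Hao2 and Acaa1b above the line of equal levels.

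Levels of different genes were compared per length, as RPKM (CPM per kilobase of the canonical transcript). In control kidneys Slc27a2 (819 ± 35.9, mean ± SD, n = 3) led Prdx5 (662 ± 18.9), with Phyh (269 ± 15.9), Cat (246 ± 10.5) and Ech1 (245 ± 25.5) next, and the last 3 did not differ beyond their spread. In cisplatin kidneys Prdx5 (338 ± 53.6) and Slc27a2 (305 ± 32.8) lay within each other's spread, and Ech1 (140 ± 24.7) and Cat (139 ± 10.6) followed. The peroxins ranged from 2.97 (Pex10) to 40.2 RPKM (Pex19) in control, with a median of 7.74, against a median of 57.9 RPKM for the enzymes. Abcd2, at 0.091 ± 0.0122 RPKM, and Hacl1, at 0.51 ± 0.0800 RPKM, were the lowest in control.

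More abundant genes of the set had lower fold changes. Across the 45 genes, Spearman's rho between the control RPKM and the log2 fold change was -0.62 (Pearson's r with log2 RPKM -0.63), and without Hacl1 and Abcd2 it was -0.57. It was -0.63 across the 32 enzymes and 0.27 across the 13 peroxins. The same rho was -0.50 across 13625 protein-coding genes tested, so that this relation was not particular to peroxisome genes. Genes are not independent replicates, all points come from the same 6 libraries, and the control level enters both axes. The enzymes were the more abundant class in control, with a median of 57.9 RPKM against 7.74 for the peroxins. The classes were not compared at equal level, and the part of level in their unequal falls was not tested.

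The libraries of the cisplatin group were ordered in a similar way over most genes. Cisplatin replicate 1 was the lowest of its group for 25 of the 45 genes and cisplatin replicate 3 the highest for 33, and the median distance from the control mean was -0.73, -0.61 and -0.48 on the log2 scale in replicates 1, 2 and 3. The cisplatin group had the larger SD of log2 CPM at 35 of the 45 genes, with a median of 0.177 against 0.0789 in control. Order and SD were not counted over all genes tested, so neither is shown to be particular to peroxisome genes. The counts and medians given here hold for TMM factors, and the spread depended on the scaling. The SD of the summed enzyme CPM was 516 in cisplatin and 223 in control with TMM factors, but 119 and 366 with library totals. With library totals, cisplatin replicates 1, 2 and 3 had enzyme sums of 4981, 5099 and 5219 CPM. Their peroxin sums were 336, 343 and 325 CPM, so that replicate 1 was no longer the lowest. The summed level of the fibroblast markers was highest in cisplatin replicate 1, at 289 CPM against 167 and 152 CPM with TMM factors. That of the proximal tubule markers without Kap was also highest there, at 4570 CPM against 4393 and 4355 CPM in replicates 2 and 3. The part of either marker set in the order of the peroxisome genes was not tested.

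Sequence before the start sites was examined because the peroxins and the enzymes moved by different amounts. The 300 bases from 250 before to 50 after the start of the canonical transcript were read from the GRCm39 genome for all 45 genes. An observed over expected CpG ratio above 0.6 was found in 10 of 13 peroxin windows (76.9%), 16 of 32 enzyme windows (50%) and 60.5% of the windows of the protein-coding genes tested. The letters TATAAA, searched on the strand of the gene, stood in 4 enzyme windows (Hacl1, Acot4, Crot and Ddo) and in no peroxin window, against 5.11% of the tested genes. As single examples, the 100 bases before the start are given 5′ to 3′ with each CG in capitals. They are those of the peroxin and the enzymes with the largest falls and of Hao2, which rose. The windows of these genes held no TATAAA.
Pex6 (chr17:47022273-47022372, plus strand): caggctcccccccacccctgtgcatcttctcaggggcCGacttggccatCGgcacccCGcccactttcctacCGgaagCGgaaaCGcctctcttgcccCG
Amacr (chr15:10981742-10981841, plus strand): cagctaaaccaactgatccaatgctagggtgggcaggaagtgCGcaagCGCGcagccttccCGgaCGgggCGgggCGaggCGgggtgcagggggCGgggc
Nudt19 (chr7:35255730-35255829, minus strand): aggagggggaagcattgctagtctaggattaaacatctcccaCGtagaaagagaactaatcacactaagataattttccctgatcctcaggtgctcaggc
Hao2 (chr3:98800569-98800668, minus strand): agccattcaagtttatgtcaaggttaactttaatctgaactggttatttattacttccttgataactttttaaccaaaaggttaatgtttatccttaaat

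The stretches hold 7, 9, 1 and 0 CG, so that the enzyme Amacr had more than the peroxin Pex6 and they do not show the difference between the classes. Amacr with 9 and Nudt19 with 1 fell by 2.98 and 2.90 on the log2 scale. On the opposite strand, exons of the long noncoding genes B230322F03Rik and Gm34315 share 938 and 270 bases with exons of Nudt19 and Amacr. Whether the printed stretches lie in these exons was not tested.

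The hexamer AGGTCA, on either strand, stood in 17.8% of the windows of the 45 genes and in 13.3% of those of the tested genes. A match to 2 copies set 1 base apart, with at most 1 letter different, was found at Acox2 alone among the 45 genes, against 0.352% of the tested genes. With at most 2 letters different, Cat was added, which makes 4.44% of the 45 windows against 3.04% of those of the tested genes. The matches are given below in capitals with the bases around them, since Acox2 and Cat were the genes of the set with the closest ones, and both genes fell.
Acox2 (chr14:14210308-14210344, plus strand): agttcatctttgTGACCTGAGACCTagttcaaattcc
Cat (chr2:103315678-103315714, minus strand): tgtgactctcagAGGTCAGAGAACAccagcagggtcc

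A match of letters describes the sequence and says nothing of binding, and sites outside these windows were not searched.

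Other genes of the peroxisome were taken from a wider list. Of 42 further peroxisome genes, 37 were tested. Of these, 17 fell (45.9%) and 4 rose (10.8%), against 22.8% and 24.5% of all genes tested. Their log2 fold changes had a median of -0.26. Among those that fell were the epoxide hydrolase Ephx2 (-1.71 ± 0.11) and Eci3 (-2.05 ± 0.19), a paralog of the isomerase Eci2. The 4 that rose were the thioesterase Acot3 (0.96 ± 0.15), the polyamine oxidase Paox (0.63 ± 0.15), the mevalonate pathway kinase Pmvk (0.61 ± 0.14) and the acyl-CoA synthetase Acsl1 (0.39 ± 0.08). With library totals 9 of the 37 genes were lower and 12 higher, while 8.78% of all genes tested were lower and 54.3% higher.

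Among 10 regulators, Ppara itself was at 39.5, 44.1 and 39.3 CPM in control and at 40.1, 42.8 and 41.4 CPM in cisplatin libraries (0.02 ± 0.08, adjusted p = 0.884, edgeR), and the groups overlapped. Ppard fell by 1.07 on the log2 scale (SE 0.16), Esrra by 0.74 (SE 0.10), Hnf4a by 0.59 (SE 0.10), Rxra by 0.39 (SE 0.13) and Ppargc1a by 0.26 (SE 0.08). Pparg (-0.30 ± 0.29), Ppargc1b (-0.33 ± 0.34) and Nr1h4 (-0.50 ± 0.21) were not called. Rxra, Ppargc1a, Pparg and Ppargc1b had positive values with library totals.

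PPARα targets outside the peroxisome moved in both directions. Of 19 such genes, 7 fell (36.8%), 5 rose (26.3%) and 7 were not called. Of all genes tested, 22.8% fell and 24.5% rose, so that the share that rose was near the background. The mitochondrial β-oxidation genes Acadm (-1.69 ± 0.14), Cpt2 (-0.90 ± 0.09), Acadl (-0.85 ± 0.09) and Acadvl (-0.87 ± 0.10) fell with the peroxisomal enzymes. The microsomal ω-hydroxylase Cyp4a14 rose from 2.69, 10.4 and 4.18 CPM in control to 393, 367 and 563 CPM in cisplatin libraries (6.28 ± 0.41, adjusted p = 9.9e-07, edgeR), and Cyp4a10 (1.72 ± 0.19) and the thioesterase Acot1 (0.69 ± 0.10) rose as well. Control replicate 2 was the highest control library for 17 of the 19 targets and for 20 of the 32 peroxisomal enzymes, Acaa1b among them. The share of all genes tested that were highest in this library was not computed.

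**Figure D4:**
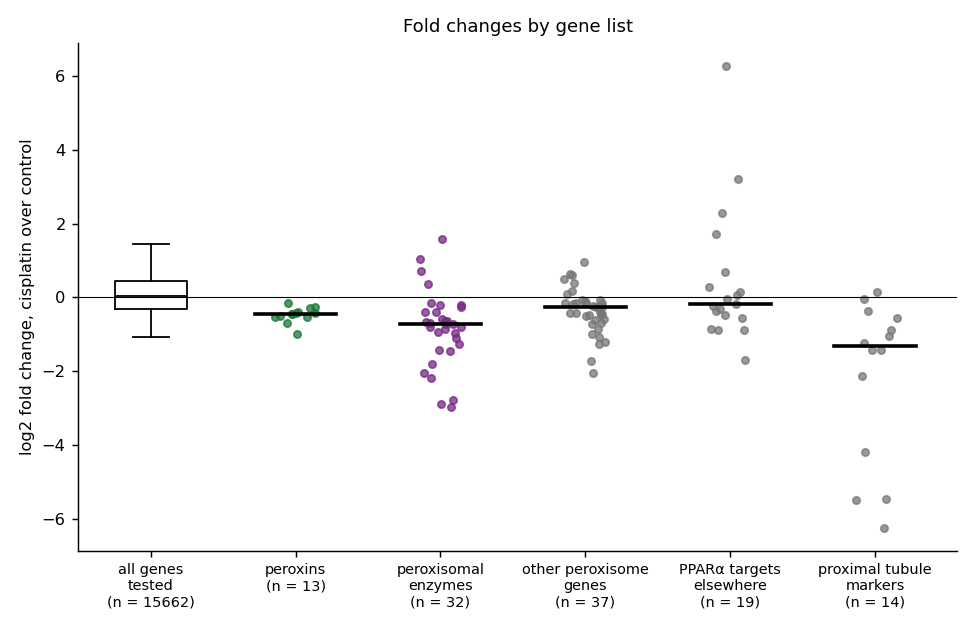
Log2 fold change of each gene (points) in the lists named on the horizontal axis, with the median of each list (black bars), beside all genes tested (box from the lower to the upper quartile, whiskers from the 5th to the 95th percentile). The medians are -0.44 for peroxins, -0.72 for peroxisomal enzymes, -0.26 for other peroxisome genes, -0.18 for PPARα targets elsewhere and -1.33 for proximal tubule markers.

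The median log2 fold change of the proximal tubule markers was -1.33, and 8 of the 45 peroxisome genes were below it. These were Amacr, Nudt19, Agps, Pecr, Crot, Acox3, Phyh and Slc27a2. No peroxin was among them. The fall of the tubule markers was a measured part of the same libraries, and its part in the fall of the peroxisome genes was not tested.

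Reads on the strand opposite to the genes were tested separately, and 10 of the 45 genes had enough of them. Of these 10, Pex10 (1.20 ± 0.38, adjusted p = 0.0186) and Acot4 (1.35 ± 0.32, adjusted p = 0.00233) rose on the opposite strand by edgeR's test, where 15.6% of 3796 genes tested rose. Prdx5 (-1.11 ± 0.15, adjusted p = 3.95e-06) and Slc27a2 (-0.99 ± 0.30, adjusted p = 0.0131) fell, as did 17% of the genes tested, so that both shares rest on 2 genes and lie near the background. For Pex10 and Acot4 the opposite-strand level stayed at or below 1.58 CPM in each library. At Pex10 the opposite reads made up 3.85% of both strands in control and 11.8% in cisplatin libraries, and at Acot4 1.81% and 4.95%. They were traces at the abundant genes, with 0.63% and 0.57% at Prdx5 and 0.048% and 0.065% at Slc27a2. Whether these traces are separate transcripts was not tested.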

How the data were processed

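Total RNA of 6 mouse kidneys was read as pairs after library construction with a stranded kit. Per the labels and the study's methods, the authors trimmed reads with cutadapt, aligned them to mm39 with STAR and deposited the raw counts per gene of each library, without normalization. Aligner settings and the gene annotation used for these libraries were not given in the sources used here. Counts of the transcript's strand were used, which hold 96.7% to 97.2% of stranded counts, and those of the other strand were tested apart. Multimapped (11.5% to 12.9%) and ambiguous pairs are not in the counts, which lowers genes with close copies.

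Here, genes passing filterByExpr (minimum count 10, minimum total 15) were tested with edgeR 4.0.16 (R 4.3.3; TMM factors, quasi-likelihood F test, group as the only term) and p-values were adjusted by Benjamini-Hochberg over 15662 genes at 0.05. CPM were taken over effective library sizes (total times TMM factor), with 2 prior counts on the log2 scale. The biological coefficient of variation was 11.0%. The step was tested on simulated data with 50 changed genes at each fold. It recovered 4 of them at 1.25-fold, 30 at 1.5-fold, 45 at 2-fold and 50 at 4-fold. Of its 134 calls, 5 fell on unchanged genes. A gene that was not called may thus have changed by a small amount. In the data 7419 genes were called, far more than in the simulation. The unadjusted p-value needed for a call was therefore less strict in the data. The recovered shares and the share of calls on unchanged genes may not hold there. Gene positions, lengths and sequence came from GRCm39 with GENCODE vM39, where 56017 of 56691 identifiers had a record. Promoter and shared-window scans used Python 3.11.15.

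The alternatives were other scalings, DESeq2 1.42.0, voom of limma 3.58.1, other filters, unstranded counts, a replicate block, a stricter threshold and each library left out. The members, lists and tests were chosen with earlier results of these data known. Per-library values are given for each member changed by 2-fold or more and for the largest and smallest change per role; other lists name up to 4 genes per direction by adjusted p, and some genes of these lists are not reported here. P-values cover the spread between 1 library per mouse, with no repeat of the experiment.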

Additional observations from a re-analysis of the deposited data

How the results depend on the processing

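The numbers called lower and higher among the 45 genes, the peroxins, the enzymes and the other peroxisome genes stayed within 1.5 times its value under DESeq2 size factors, upper-quartile factors, DESeq2's Wald test, limma-voom, other count filters, unstranded counts, removal of mitochondrial and the 20 highest genes, an adjusted p under 0.01 and each library left out. Counts of 2-fold changes and of groups without overlap were not rerun. Leaving out a library gave 33 to 38 of 45 genes lower and 3 to 4 higher. Over all genes tested in those runs, 18.0% to 26.1% were lower and 18.7% to 25.2% higher. The 38 genes lower and the 26.1% both came without cisplatin replicate 3. By class, 9 to 11 peroxins and 24 to 27 enzymes were lower. The distance between enzymes and peroxins was shorter by 0.36 to 0.41. The same-numbered mice correlated at 0.133, 0.142 and 0.0997 in their deviations and each did so best with its own number, a hint from the data alone, so the numbers were not taken as pairs. The replicate block gave 3796 genes lower and 4087 higher over all genes, and 36 lower and 4 higher among the 45, with 12 of 13 peroxins lower. It added Pex16 (adjusted p = 0.049) and Pex7 (0.0358) as lower and Acaa1b (0.0233) as higher.

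Library totals changed 7 counts. The genes lower became 19 and those higher 5, the peroxins lower 1, the enzymes higher 5, the other peroxisome genes lower 9 and higher 12, and the opposite-strand rises among the 45 genes 4, an alternative chosen after seeing the data. Under library totals the sign turned for 11 of the 45 genes, namely Pex11a (0.0086), Pex14 (0.044), Hsd17b4 (0.035) and Acaa1a (0.024), called lower with TMM factors, and Pex16 (0.18), Pex7 (0.11), Pex26 (0.27), Decr2 (0.22), Eci2 (0.22), Acot4 (0.28) and Nudt7 (0.16), which were not. It also turned for 25 other listed genes, of which 12 were called under either scaling and are named for this alone, namely Slc25a17 (0.34), Fis1 (0.33), Dnm1l (0.29), Mff (0.35), Tmem135 (0.28), Hsdl2 (0.027), Rxra (0.053), Ppargc1a (0.17), Hadha (0.049), Plin2 (0.38), Slc5a12 (0.037) and Aqp1 (0.39). The log2 ratio of summed levels became positive for the oxidases (0.27), the PPARα targets (0.27), the thick ascending limb (0.25) and the podocyte markers (0.42). The cause was not tested.

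Depth limits Abcd2 and Hacl1, the members with the fewest counts. Whole tissue, a single time and 3 mice per group limit the rest.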
